A study of Mus musculus with 8 samples.

Results

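The Kv2 and Kv3 families of voltage-gated potassium channels were examined in glutamatergic neurons of the mouse ventral pallidum (VP) through 8 genes, taken by symbol from the deposited comparison of TRAP and INPUT libraries. They comprised 1 Kv2 gene (Kcnb2), 3 Kv3 genes (Kcnc1, Kcnc2 and Kcnc4) and 4 genes of silent subunits (Kcng1, Kcng2, Kcns2 and Kcnv1). Values were present for 7 of the 8 genes among 14353 genes in all. Kcng2 had no row and was not analysed here, and whether it fell below the low-expression filter of the study was not tested.

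TRAP, translating ribosome affinity purification, collects ribosomes that carry a hemagglutinin (HA) tag together with the mRNA bound to them. Mice were homozygous for VGluT2-Cre and heterozygous for the RiboTag allele of Rpl22, so that the tag was carried by cells in which the vGluT2 driver had expressed Cre, and they had no treatment. TRAP and INPUT did not differ in genotype, since both libraries of a pool came from 1 homogenate. The labels name glutamatergic neurons for TRAP and all neurons and glia for INPUT, although the methods also speak of an unbound fraction where they describe sequencing. The 4 pools were VP1.6 (3 male and 4 female mice of 9 to 12 weeks), VP2.2 (4 male and 6 female), VP2.6 (4 male and 7 female) and VP2.11 (4 male and 6 female), the last 3 with mice of 10 to 16 weeks. Each of the 4 pools gave 1 TRAP and 1 INPUT library, 8 libraries from 38 mice. By the methods, the tissue punches may have included neighboring striatum or nucleus accumbens.

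Voltage-gated potassium channels open upon depolarization and carry the outward current that repolarizes the membrane. Kv2 channels give a slowly activating delayed rectifier current that is prominent at the soma and proximal dendrites. Kv3 channels activate at depolarized potentials and close quickly, which is known to allow brief spikes and high firing rates. Silent subunits (Kv5, Kv6, Kv8 and Kv9) do not form working channels on their own and instead assemble with Kv2 subunits and change the resulting current.

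The 3 classes share the potassium-selective pore, and the stretch that distinguishes pore-forming from silent members is shown for each gene with values. Each line holds 108 coding bases read 5′ to 3′ from GENCODE M21 transcripts (GRCm38). The first capitals mark the 15 bases of the potassium selectivity filter, and the second capitals mark the 9 bases, 3 codons, of the hinge in the last transmembrane segment, at which the channel gate bends.
Kcnb2: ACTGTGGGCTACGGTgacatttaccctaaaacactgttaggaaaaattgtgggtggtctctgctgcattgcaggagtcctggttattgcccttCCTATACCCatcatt
Kcnc1: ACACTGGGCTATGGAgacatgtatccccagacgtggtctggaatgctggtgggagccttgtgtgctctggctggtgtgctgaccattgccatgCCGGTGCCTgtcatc
Kcnc2: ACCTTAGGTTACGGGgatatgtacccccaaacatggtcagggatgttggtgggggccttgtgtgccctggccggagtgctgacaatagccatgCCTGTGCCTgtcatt
Kcnc4: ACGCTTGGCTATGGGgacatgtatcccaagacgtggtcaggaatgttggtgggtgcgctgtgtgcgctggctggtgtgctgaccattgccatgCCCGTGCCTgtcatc
Kcng1: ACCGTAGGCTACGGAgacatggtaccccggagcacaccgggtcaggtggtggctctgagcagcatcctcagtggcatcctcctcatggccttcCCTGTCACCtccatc
Kcns2: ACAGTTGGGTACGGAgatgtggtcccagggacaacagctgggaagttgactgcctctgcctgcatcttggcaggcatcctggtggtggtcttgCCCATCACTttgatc
Kcnv1: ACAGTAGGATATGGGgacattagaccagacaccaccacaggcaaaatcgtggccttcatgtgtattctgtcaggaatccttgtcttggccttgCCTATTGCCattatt

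The Kcnb2 stretch lies at chr1:15710046-15710153 (plus strand, exon 2 of 2), that of Kcnc1 at chr7:46427973-46428080 (plus strand, exon 2 of 4), that of Kcnc2 at chr10:112456229-112456336 (plus strand, exon 3 of 5) and that of Kcnc4 at chr3:107447706-107447813 (minus strand, exon 2 of 4). Among the silent genes, the stretch lies at chr2:168262548-168262655 for Kcng1 (minus strand, exon 3 of 3), at chr15:34839612-34839719 for Kcns2 (plus strand, exon 2 of 2) and at chr15:45109196-45109303 for Kcnv1 (minus strand, exon 3 of 3). All 7 stretches are coding sequence within 1 exon. The first hinge codon was a proline codon (CCN) in 7 of 7 genes, whereas the last hinge codon was CCN in 4 of 4 pore-forming genes and in 0 of 3 silent genes. Across these bases, Kcnc1 and Kcnc4 were 89.8% identical, and Kcnc2 was 80.6% identical to each of them. Kcnb2 was 60.2% to 63.9% identical to the Kv3 genes and 51.9% to 60.2% identical to the silent genes. Reads of these genes could be told apart at the length sequenced, since no 75-base stretch of any transcript of the 7 genes occurred in a transcript of another gene, and no exon of another gene overlapped them.

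Levels are given as log2 CPM, as deposited, in which the reads of a gene are scaled to the size of its library. The table holds no total counts, and depth could be read from whole-read steps in 2 of the 4 pools. It came to about 13.4 M reads for TRAP and 40.6 M reads for INPUT of VP2.2, and to about 13.5 M and 26.8 M for VP2.6. At these depths the 7 genes rested on about 98 reads (Kcns2 in TRAP VP2.6) to 1054 reads (Kcnc1 in INPUT VP2.2) per library, and the depth of VP1.6 and VP2.11 is unknown. A property of the deposited values bears on every level below. For 14351 of 14353 genes a single level separated TRAP from INPUT in all 4 pools, so a gene that was higher in TRAP in each pool also had every TRAP library above every INPUT library. Overlap between fractions therefore carries no information beyond the direction in the 4 pools, and the cause of this property was not tested.

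The 7 genes deviated most in INPUT of pool VP2.2. In INPUT VP2.2, 6 of the 7 genes were below the mean of the other INPUT libraries, with a median of -0.45 on the log2 scale, whereas the median over all genes was -0.02. In TRAP VP2.2, 6 of the 7 were above the mean of the other TRAP libraries (median 0.18). Other pools deviated too, with 6 of the 7 above in INPUT VP2.11 (median 0.29) and 4 of the 7 below in TRAP VP2.6 (median -0.24). In pool VP2.2 the other voltage-gated potassium channel genes did likewise, with 17 of 20 below in INPUT (median -0.47) and 16 of 20 above in TRAP. GABAergic markers were also lower in INPUT VP2.2 (4 of 4, median -0.72) and higher in TRAP VP2.2 (4 of 4, median 0.64), and so were cholinergic markers (5 of 5 below at -0.82, 5 of 5 above at 0.73). TRAP VP2.2 was also above the other TRAP libraries for 5 of 5 astrocyte markers (median 0.83), 5 of 5 medium spiny neuron markers (0.72), 5 of 5 fast-spiking interneuron markers (0.39), 5 of 5 oligodendrocyte markers (0.31) and 4 of 5 microglia markers (0.33). Glutamatergic markers were below in both libraries of the pool, 4 of 5 in INPUT VP2.2 (median -0.55) and 4 of 5 in TRAP VP2.2 (median -0.18). Pan-neuronal markers went the other way from the channel genes, with 2 of 5 below in INPUT VP2.2 (median 0.10) and 4 of 5 below in TRAP VP2.2 (median -0.36). The part of these markers in the differences of Kcnb2 and Kcnc2 in that pool was not tested.

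Differences between fractions were tested with limma across 14249 genes, with the pool left out of the fit and, beside it, with the pool as a replicate block, at a Benjamini-Hochberg adjusted p under 0.05. Each SE below is from the fit that leaves the pool out. With the block the SE was larger for each of the 7 genes, for example 0.25 against 0.16 for Kcnv1. Kcnb2 and Kcnv1 were higher in TRAP in both fits, and 0 of the 7 genes were lower in TRAP. All 7 had been over 1 CPM in all 8 libraries, and so passed the filter through both fractions. Of all genes tested, 47.9% were called in the fit that ignores the pool, 23.2% as higher and 24.8% as lower in TRAP, and 32.2% in the fit with the block, 15.4% as higher and 16.8% as lower. The 7 genes had a median TRAP minus INPUT difference of 0.44 on the log2 scale, whereas the median of all genes tested was -0.05. Every TRAP library lay above every INPUT library for 3 of the 7 genes (Kcnb2, Kcnc2 and Kcnv1), and for 23.3% of all genes tested, while the reverse held for 0 of the 7 and for 24.4% of all genes tested. In these bulk fractions, fewer cells of a type and less RNA per cell cannot be told apart.

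**Figure D1:**
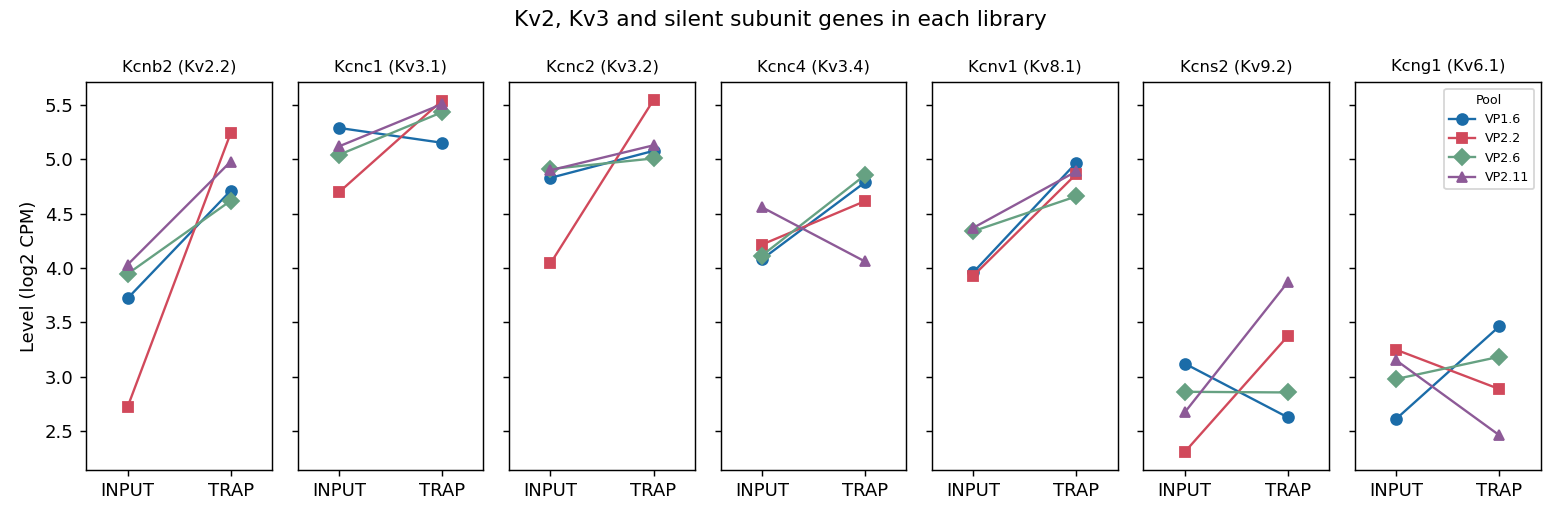
Level of each gene (vertical axis, log2 CPM) in the INPUT and TRAP library of each pool, with a line joining the libraries of 1 pool. All 4 lines rise for Kcnb2, Kcnc2 and Kcnv1, while for Kcng1 and Kcns2 only 2 of 4 rise.

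Kcnb2 encodes Kv2.2, a pore-forming Kv2 subunit that assembles with other Kv2 subunits and with silent subunits. In TRAP its level was 4.71 log2 CPM in VP1.6, 5.24 in VP2.2, 4.62 in VP2.6 and 4.98 in VP2.11, which is the order of pools kept below. In INPUT its level was 3.72, 2.72, 3.95 and 4.03 log2 CPM in the same pools. Every TRAP library was above every INPUT library, and INPUT VP2.2 was the lowest of the 8. The mean was 30.0 ± 5.99 CPM in TRAP and 12.9 ± 4.40 CPM in INPUT (SD, n = 4 libraries each). The difference was 1.28 ± 0.28 on the log2 scale (SE), a 2.44-fold ratio, with an adjusted p of 0.0039 from limma, and with the pool as a block the adjusted p was 0.0057 (95% interval 0.63 to 1.94). Kcnb2 thus differed between fractions by more than the spread between pools. Pool VP2.2 gave the widest gap at 2.52, against 0.67 to 0.99 in the other pools, and without that pool the difference was 0.87 (adjusted p = 0.018 from limma with the block). Kcnb2 has the greatest total exon length of the 7 genes (15.2 kb), and with the trend of the differences on exon length taken out its difference was 0.74 (adjusted p = 0.028 from limma with the block).

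Kcnc1 encodes Kv3.1, the subunit best known from fast-spiking neurons. Its level in TRAP was 5.15 log2 CPM in VP1.6, 5.54 in VP2.2, 5.43 in VP2.6 and 5.51 in VP2.11. In INPUT the level of Kcnc1 was 5.29, 4.70, 5.04 and 5.12 log2 CPM in that order. The fractions overlapped, since INPUT VP1.6 was above TRAP VP1.6. The difference of 0.37 ± 0.16 (SE, log2 scale) did not pass the test (adjusted p = 0.076 from limma, and 0.24 with the block, 95% interval -0.13 to 0.88). Without VP1.6 it was 0.54 with an adjusted p of 0.046 in limma without the block, and 0.21 with the block. Without VP2.2 it was 0.22 (adjusted p = 0.24 from limma, no block), and with the trend on exon length taken out it was 0.03 (adjusted p = 0.93 from limma with the block).

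Kcnc2 encodes Kv3.2, which forms delayed rectifier channels similar to those of Kv3.1. It measured 5.08, 5.55, 5.01 and 5.13 log2 CPM in TRAP, with the pools in the order above. The INPUT libraries measured 4.83, 4.04, 4.91 and 4.90 log2 CPM. All TRAP libraries were above all INPUT libraries, but by little in 3 pools, in which the within-pool differences were 0.10 to 0.25 on the log2 scale, against 1.51 in VP2.2. The mean difference of 0.52 ± 0.22 (SE) did not pass the test (adjusted p = 0.068 from limma, and 0.15 with the block, 95% interval -0.05 to 1.09), and without VP2.2 it was 0.19.

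Kcnc4 encodes Kv3.4, which gives a rapidly inactivating current, unlike the other Kv3 genes described here. It measured 4.79, 4.62, 4.85 and 4.06 log2 CPM in TRAP, and 4.08, 4.22, 4.11 and 4.56 log2 CPM in INPUT. Pool VP2.11 went the other way from the rest, with a TRAP minus INPUT difference of -0.50 on the log2 scale. The difference was 0.34 ± 0.20 (SE), which did not pass the test (adjusted p = 0.19 from limma, and 0.36 with the block, 95% interval -0.24 to 0.91). Without VP2.11 it was 0.62, with adjusted p-values of 0.0076 (limma, no block) and 0.10 (limma, block). With library weights from limma it was 0.57 (adjusted p = 0.0059) and passed, but with the weights and the block it was 0.52 (adjusted p = 0.074) and did not. Leaving out VP1.6 or VP2.6 instead gave 0.21 and 0.20 (adjusted p = 0.53 and 0.55 from limma, no block).

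Kcnv1 encodes Kv8.1, a silent subunit that lowers Kv2 currents when the subunits are expressed together. Its TRAP level was 4.97 log2 CPM in VP1.6, 4.87 in VP2.2, 4.66 in VP2.6 and 4.89 in VP2.11. Its INPUT level was 3.96, 3.93, 4.34 and 4.37 log2 CPM. The fractions did not overlap, and the mean was 28.9 ± 2.56 CPM in TRAP and 17.9 ± 2.93 CPM in INPUT (SD, n = 4). The difference was 0.70 ± 0.16 on the log2 scale (SE), a 1.62-fold ratio, with an adjusted p of 0.0047 from limma, and 0.042 with the block (95% interval 0.17 to 1.22). This was larger than the spread between pools, and without VP2.2 the difference was 0.62 (adjusted p = 0.019 from limma, no block). With the block and 3 pools, Kcnv1 did not pass, whichever pool was left out (adjusted p = 0.060 to 0.20 from limma, differences 0.59 to 0.82).

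Kcns2 encodes Kv9.2, a silent subunit that modulates Kv2 channels. It measured 2.62, 3.37, 2.85 and 3.87 log2 CPM in TRAP, and 3.12, 2.30, 2.86 and 2.67 log2 CPM in INPUT. The direction differed between pools, with differences of -0.50, 1.07, -0.01 and 1.20 on the log2 scale. The mean difference of 0.44 ± 0.29 (SE) did not pass the test (adjusted p = 0.23 from limma, and 0.36 with the block, 95% interval -0.31 to 1.20).

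Kcng1 encodes Kv6.1, a further silent partner of Kv2. Its levels were 3.46, 2.89, 3.18 and 2.46 log2 CPM in TRAP and 2.61, 3.25, 2.98 and 3.15 log2 CPM in INPUT. TRAP was higher in 2 of 4 pools, and the means were 8.25 ± 2.36 CPM in TRAP and 8.09 ± 1.48 CPM in INPUT (SD, n = 4). No difference was detected between fractions (0.00 ± 0.25 on the log2 scale, SE, adjusted p = 1.00 from limma with or without the block), with a 95% interval of -0.71 to 0.72 with the block.

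Of the 10 silent subunit genes, 7 had values, and 2 of them were higher in TRAP in both fits. Over all genes tested, 23.2% were higher in TRAP, and 15.4% with the block. Besides Kcnv1, the gene that was higher was Kcnf1, which encodes Kv5.1 and was at 5.37 to 5.68 log2 CPM in TRAP and 3.74 to 4.69 in INPUT. Its difference of 1.42 ± 0.20 (SE, log2 scale) had an adjusted p of 3.9e-04 from limma, and 9.3e-04 with the block. Kcns3, which encodes Kv9.3, was at 0.061 to 0.27 CPM in 3 TRAP libraries, 1.00 CPM in TRAP VP2.2 and 1.72 to 3.57 CPM in INPUT. It passed the filter on low values only through its INPUT libraries, so these values are given as a description without a test. Kcng4 (Kv6.4) was at 1.21 to 2.62 CPM in TRAP and 0.54 to 1.17 CPM in INPUT. It passed the same filter only through its TRAP libraries, so it is likewise described without a test. Kcns1 (Kv9.1) had a difference of 0.46 ± 0.32 (SE, log2 scale) and did not pass the test (adjusted p = 0.25 from limma, and 0.52 with the block).

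**Figure D2:**
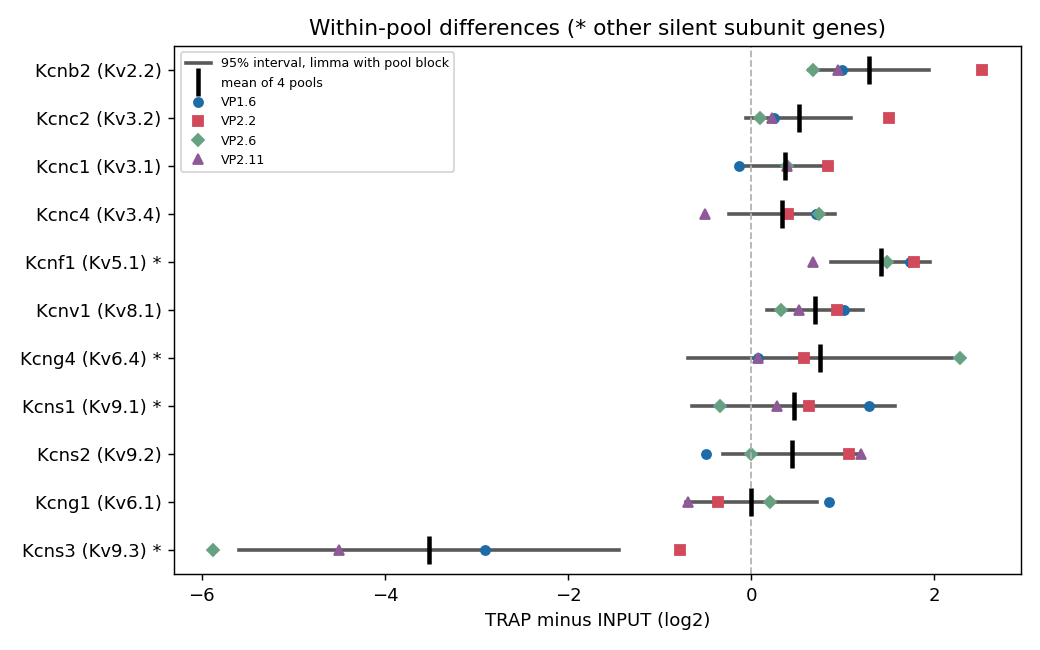
TRAP minus INPUT (horizontal axis, log2 scale) for the 7 genes and, marked with an asterisk, 4 other silent subunit genes. Points are the 4 pools, the black tick is their mean and the bar is the 95% interval from limma with the pool as a block. The bars of Kcnb2, Kcnf1 and Kcnv1 lie above 0, and those of Kcnc1, Kcnc2, Kcnc4, Kcns1, Kcns2 and Kcng1 include 0. The bars of Kcns3 and Kcng4 are not read as a test. Kcns3 passed the filter on low values only through INPUT, and Kcng4 only through TRAP.

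To compare levels between genes, CPM was divided by the length of each gene's exons in kilobases. In TRAP the order was Kcnc4 (6.67 ± 1.50 CPM per kilobase, SD, n = 4), Kcnv1 (6.29 ± 0.56), Kcnc2 (5.18 ± 0.93), Kcnc1 (4.52 ± 0.53), Kcnb2 (1.98 ± 0.40), Kcng1 (1.83 ± 0.52) and Kcns2 (1.72 ± 0.68). Only the step from Kcnc1 to Kcnb2 had the same direction in 4 of 4 TRAP libraries (1.20 ± 0.22, log2 CPM per kilobase). The other neighbors in that order did so in 2 or 3 of 4 libraries. In INPUT the order was the same down to Kcnc1, followed by Kcng1, Kcns2 and Kcnb2. There, 3 steps had the same direction in every library, from Kcnc4 to Kcnv1 (0.42 ± 0.22), from Kcnc1 to Kcng1 (0.97 ± 0.50) and from Kcns2 to Kcnb2 (0.58 ± 0.43). Kcnb2 was thus the lowest of the 7 per length in all 4 INPUT libraries, but not in TRAP, in which it was above Kcng1 in 2 libraries and above Kcns2 in 3. Among 33 voltage-gated potassium channel genes with values, Kcnc4 ranked 5th per length in TRAP, Kcnv1 6th, Kcnc2 8th, Kcnc1 11th and Kcnb2 17th, and Kcnb2 ranked 21st in INPUT. The order of the upper 4 depended on the length used. With the length of the longest transcript in place of all exons, it was Kcnc2 (7.32 CPM per kilobase in TRAP), Kcnc4 (6.67), Kcnv1 (6.58) and Kcnc1 (5.51).

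**Figure D3:**
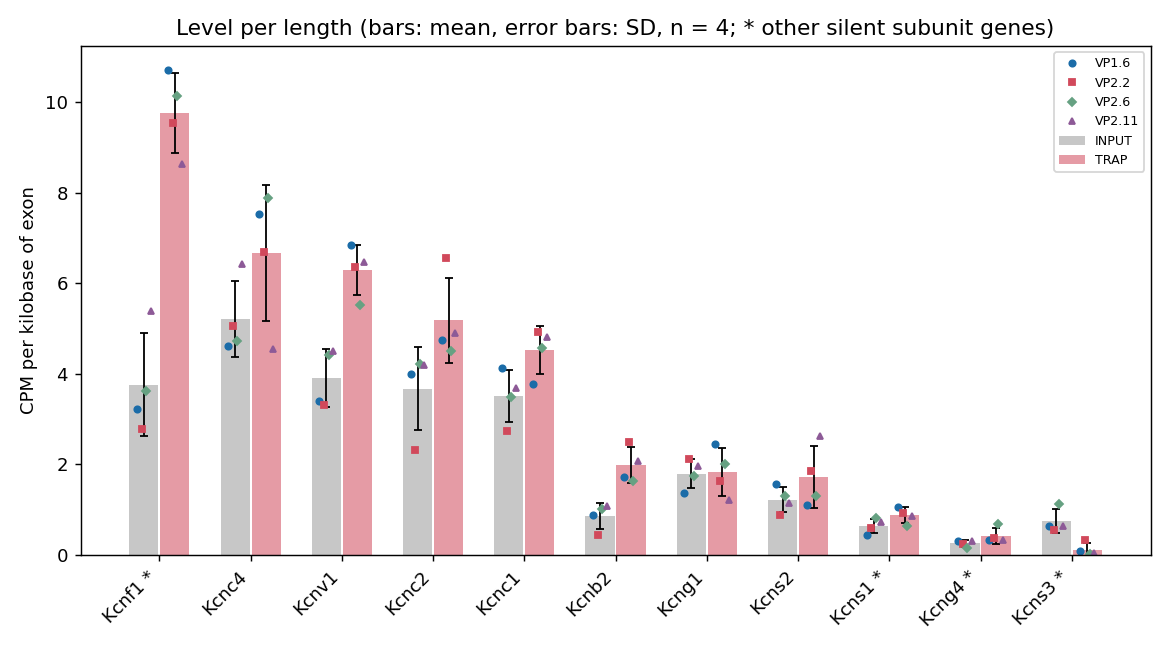
Level per length (vertical axis, CPM per kilobase of exon) in INPUT (gray bars) and TRAP (red bars), as mean and SD over 4 libraries, with a point for each pool. Asterisks mark other silent subunit genes. Kcnc4, Kcnv1, Kcnc2 and Kcnc1 stand above Kcnb2, Kcng1 and Kcns2 in both fractions.

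By class, the gap between Kv2, here Kcnb2 alone, and Kv3 was narrower in TRAP than in INPUT. Kcnb2 minus the mean of the 3 Kv3 genes was -1.75 to -1.19 (log2 CPM per kilobase) in the TRAP libraries and -2.87 to -2.02 in the INPUT libraries. The change of this gap was 0.87 ± 0.56 on the log2 scale (SD, n = 4 pools), at 0.26 in VP2.6, 0.72 in VP1.6 and 0.91 in VP2.11, and highest in VP2.2. Without VP2.2, Kcnb2 minus the Kv3 mean was -1.50 in TRAP and -2.13 in INPUT (log2 CPM per kilobase). Kcnb2 minus the mean of the 3 silent genes was -0.61 to -0.11 in TRAP and -2.08 to -1.01 in INPUT on the same scale, and this gap changed by 0.90 ± 0.71. Between Kv3 and silent genes the gap was about the same in both fractions, at 1.02 ± 0.18 log2 CPM per kilobase in TRAP and 0.99 ± 0.16 in INPUT, a change of 0.03 ± 0.32. These contrasts over the genes are descriptions without a test, since a class holds 1 to 3 genes. They keep the trend of the differences on exon length. With it taken out, TRAP minus INPUT was 0.74 (Kcnb2), 0.03 (Kcnc1), 0.31 (Kcnc2) and 0.49 (Kcnc4), log2 scale with the block.

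Each of the 4 pore-forming genes described here was also expressed as a share of their summed CPM per kilobase. The share of Kcnb2 was 9.73% in VP1.6, 12.1% in VP2.2, 8.71% in VP2.6 and 12.7% in VP2.11 for TRAP. In INPUT it was 6.39%, 4.12%, 7.56% and 7.01% in the same order. It was higher in TRAP in 4 of 4 pools, with means of 10.8 ± 1.90% in TRAP and 6.27 ± 1.51% in INPUT (SD, n = 4), and the 3 Kv3 genes made up the rest in both fractions. The share of Kcnc4 was 36.3 ± 7.37% in TRAP and 39.7 ± 6.53% in INPUT, and in TRAP VP2.11 it was below both Kcnc1 and Kcnc2. These shares use the length of all exons, without the trend of the differences on exon length taken out. With the longest transcript, Kcnc2 was above Kcnc4 in TRAP. A share of mRNA per length is not a share of channels or of current.

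**Figure D4:**
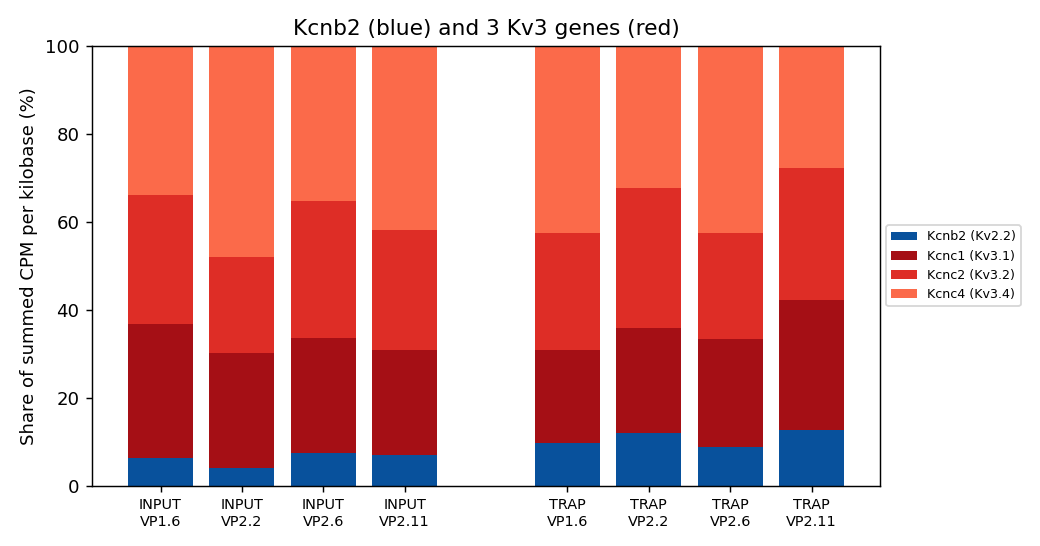
Share of each pore-forming gene (vertical axis, percent of the summed CPM per kilobase of Kcnb2, Kcnc1, Kcnc2 and Kcnc4) in each of the 8 libraries, with Kcnb2 in blue and the 3 Kv3 genes in red. The blue part is 4.12% to 7.56% in INPUT and 8.71% to 12.7% in TRAP.

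The fractions differed in cell type markers. Beside the counts here, 23.2% of all genes tested were higher and 24.8% lower, and 15.4% and 16.8% with the block. Of 5 glutamatergic markers, 4 were higher in TRAP in both fits, with a summed level of 246 to 316 CPM in TRAP and 45.3 to 91.4 CPM in INPUT. Slc17a6, which encodes vGluT2 itself, differed by 2.55 ± 0.25 on the log2 scale (SE). All 5 pan-neuronal markers were higher in TRAP (4 with the block), with a median difference of 0.95 on the log2 scale against 0.44 for the 7 channel genes. Of 4 GABAergic markers, 1 was lower in both fits (Slc32a1, -1.26 on the log2 scale) and 3 did not pass. Their summed level was 1044 to 1723 CPM in TRAP and 695 to 1539 CPM in INPUT, lowest in INPUT VP2.2. Most of that level came from Gad1 and Gad2, at means of 9.23 and 9.01 log2 CPM in TRAP, and not from Slc32a1 (3.39). Of 5 genes listed as markers of fast-spiking interneurons, a cell type that Kv3.1 is known for, 3 were lower (Pvalb, Lhx6 and Tac1). The other 2, Erbb4 and Syt2, were higher. Pvalb differed by -1.38 on the log2 scale. The summed level of the 5 was 236 to 328 CPM in TRAP and 495 to 682 CPM in INPUT. Tac1 made up the largest part of it, at a mean of 8.57 log2 CPM in INPUT and 6.82 in TRAP, against 6.99 and 5.61 for Pvalb. The sum therefore mainly follows Tac1 and is not a measure of fast-spiking interneurons as such. All 5 medium spiny neuron markers were lower in TRAP (292 to 478 against 796 to 1228 CPM). Among glial lists, 4 of 5 astrocyte and 4 of 5 oligodendrocyte markers were lower in TRAP in both fits. In the fit without the block, 1 oligodendrocyte marker was higher. The microglia markers Cx3cr1, P2ry12 and C1qb were lower in both fits. Tmem119 and C1qa passed the filter only through INPUT, so they are given no call. The lowest marker value was 0.028 CPM, in the microglia list. A log2 value cannot stand for 0 CPM, so a listed value does not show that reads were found. The part of these cell types in the differences of the channel genes was not tested.

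Genes that act with these channels were described from lists of partners. The counts below stand beside 23.2% of all genes tested as higher and 24.8% as lower, and 15.4% and 16.8% with the block. Of 8 Kv2 partner genes, 3 were higher in TRAP, 2 of them with the block, and 0 were lower, with a median difference of 0.18 on the log2 scale. Amigo1, whose product is an auxiliary subunit of Kv2 channels, differed by 0.69 ± 0.19 (SE, adjusted p = 0.014 from limma, and 0.059 with the block). Stx1a and Snap25, which encode SNARE proteins that bind Kv2 channels, differed by 1.54 ± 0.28 and 1.93 ± 0.31 (adjusted p = 0.0015 and 8.4e-04 from limma), although Snap25 is also among the pan-neuronal markers. Vapa and Vapb, which encode the proteins that anchor Kv2 clusters at endoplasmic reticulum junctions, differed by 0.18 ± 0.16 and 0.17 ± 0.18 and did not pass the test. Of 6 genes known for Kv3 trafficking and regulation, 3 were higher, 1 of them with the block, with a median of 0.41. Kif5b, which encodes a kinesin that carries Kv3 channels into axons, differed by 1.19 ± 0.26 (adjusted p = 0.0043 from limma, and 0.0047 with the block). Csnk2a1 and Csnk2a2, which encode the catalytic subunits of casein kinase 2, a kinase that acts on Kv3.1, differed by 0.45 ± 0.11 and 0.41 ± 0.15 (adjusted p = 0.0077 and 0.044 from limma, and 0.11 and 0.21 with the block).

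Of 20 other voltage-gated potassium channel alpha subunit genes with values, 6 were higher and 1 was lower in TRAP (median difference 0.40 on the log2 scale). With the block, 2 were higher and 1 was lower. Over all genes tested, 23.2% were higher and 24.8% lower, and 15.4% and 16.8% with the block. Likeness to each of the 7 genes was measured as the root mean square distance between the 4 within-pool differences, on the log2 scale, over these 20 genes. Among the nearest genes to Kcnb2 were Kcnd3 (distance 0.51) and Kcnh5 (0.56), and Kcnh5 was also near Kcnv1 (0.29). Kcna4 (0.23) and Kcnh1 (0.27) were near Kcnc1, Kcnq3 (0.24) and Kcna4 (0.31) near Kcnc2, and Kcnh1 (0.67) near Kcnc4. Kcnq5 (0.47) and Kcna4 (0.53) were near Kcns2, and Kcna6 (0.67) was near Kcng1. With 4 pools per gene and the same libraries behind every difference, these distances describe the values only.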

How the data were processed

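Ribosome-bound and INPUT RNA of 4 pools of VP tissue was sequenced by the authors. Reads were aligned with STAR 2.5.1a to an Ensembl release 76 assembly and uniquely aligned reads were counted per gene with featureCounts. The authors scaled the libraries with TMM factors from edgeR, removed low and ribosomal genes and used limma with voom and quality weights. The deposited values are log2 CPM per library. The values of 3 libraries are rounded to 3 significant digits. The table also holds the fold changes, limits and p-values of the authors and a transcript count, which were not used.

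Of 14398 entries, 45 that repeated a gene were left out. Exon lengths came from GENCODE M21 (GRCm38), matched by identifier for 14349 of 14353 genes. TRAP was compared with INPUT with limma 3.58.1 (lmFit, eBayes with a trend) in R 4.3.3, for 14249 genes over 1 CPM in at least 3 libraries, two-sided, with Benjamini-Hochberg adjustment over all of them and a threshold of 0.05. The pools pair the libraries, since the labels give each pool 1 library of each fraction and the methods take both from 1 homogenate. Libraries of 1 pool deviated from their fraction means in opposite directions (correlation across genes -0.75 to -0.49), against 0.05 to 0.44 between pools. Values with the pools as blocks are therefore given beside the main ones.

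Depth was read in VP2.2 and VP2.6, where TRAP minus INPUT differences of 98.7% and 99.7% of low genes matched ratios of whole reads (tolerance 2e-06, log2 scale). Rounding hides it in the other pools, so p-values rest on the spread between pools, and a count test was not run because whole reads appear only in within-pool differences.

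The members and gene lists were chosen with earlier results of these data known. Every member with a value is named, with the other silent subunit genes, the called and the largest remaining partner genes, and the channel genes near each member by distance. Some genes of these lists are not reported here. Alternatives covered the block, library weights, filters, an added pseudocount of 1, median centring, quantile normalisation, the variance trend, exon length, a size limit and leaving out each pool.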

Additional observations from a re-analysis of the deposited data

Results flagged for a closer look

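Kcnc2 in INPUT VP2.2 was at 4.04 log2 CPM (4.042), far below the other INPUT libraries at 4.83 to 4.91. The gap made up 0.907 of the range of the 4 libraries, above the 95% critical value of Dixon's test for a sample that stands apart. It was the only 1 of 26 groups of 4 libraries (13 genes of the family in TRAP and INPUT) past that limit, where chance alone gives about 1.3.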

How the results depend on the processing

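Kcnb2 was higher with an adjusted p under 0.05 in 19 of 19 alternatives (0.74 to 1.49 on the log2 scale, adjusted p 0.0014 to 0.028 from limma). For Kcnv1 this held in 15 of 19 (0.57 to 0.82). These counts go by the adjusted p alone, and Kcnv1 (0.70) did not reach the size limit of 1 given below. With a replicate block for the pool, the test called 4592 genes against 6830 without it, and the same 2 of the 7 channel genes. The number of the 7 called was 4 with each library centred on its median, which added Kcnc1 (0.41) and Kcnc2 (0.55), and 1 where a fold change of 1 or more in size on the log2 scale was also required, a setting that left 3528 genes in all. Over the fits that left out 1 pool, with or without the block, 1 to 3 of the 7 and 3232 to 6894 genes were called, and with the block it was 1 of the 7 each time, in fits that have fewer libraries. The direction of Kcng1, which no fit called, turned to -0.28 without VP1.6 and to -0.07 without VP2.6, with a range of -0.28 to 0.23 over the pools left out. With the length of the longest transcript in place of all exons, Kv3 minus silent genes was 1.20 in TRAP and 1.17 in INPUT (log2 CPM per kilobase), and Kcnc1 and Kcnc2 were at 2.45 and 2.86 in TRAP and 2.08 and 2.34 in INPUT, while the other class contrasts moved by less than their SD. Of the fold changes of single genes, with calls by the adjusted p alone, 120 kept direction and call and 5 became called. Another 4 lost the call and 4 turned, and the cause was not tested. With 4 pools, differences that did not pass the test are not shown to be absent, and the depth of VP1.6 and VP2.11 is unknown.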
